A study of Mus musculus with 8 samples.

Results

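The genes described here are the 7 classical and accessory genes of MHC class II antigen presentation that were chosen by symbol: *H2-Aa*, *H2-Ab1*, *H2-Eb1*, *Cd74*, *H2-DMa*, *H2-DMb1* and *Ciita*. All 7 were found both among the 11554 genes listed for small intestinal crypts and among the 12701 listed for villi. They were picked because their values were seen to be lower in both mutant villus libraries, so the villus difference is given as a description without a test. The crypt values took no part in that choice.

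MHC class II molecules are α and β chain pairs that carry peptides from the endosome to the cell surface, where CD4+ T cells read them. The invariant chain, encoded by *Cd74*, guides newly made pairs to the endosome and fills their groove, and the DM heterodimer then removes its remnant and helps peptides bind. *Ciita* encodes the coactivator that switches these genes on as a group. Dendritic cells, macrophages and B cells express them throughout life, and intestinal epithelial cells, including stem cells at the crypt base, also express them, which interferon γ and microbes are known to raise.

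Bulk RNA-seq was carried out on crypts and villi of the small intestine from mice of the C57BL/6 strain, 1 month after tamoxifen (100 mg/kg for 5 days). The mutants, Gli1-PtgscKO mice, carry the tamoxifen-inducible Gli1-CreER and floxed alleles of *Ptgs1* (COX1) and *Ptgs2* (COX2). The Cre is active in Gli1-expressing mesenchymal cells and not in the epithelium that was sampled. The Ctrl mice are labelled WT, and their sample records name Gli1-CreERT2; Rosa26-tdTomato mice, whereas the study's own legend describes Ctrl mice as floxed for both genes with no Cre, so it cannot be told from these sources whether Ctrl mice carried Cre or the floxed alleles.

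There were 2 Ctrl and 2 mutant crypt libraries, described as biological replicates. The 2 Ctrl villus columns were identical in every gene and were counted as 1 library, against 2 mutant villus libraries. Reads on listed genes came to between 16853017 and 21121714 per crypt library and between 13477600 and 15751024 per villus library. Crypt stem cell markers and enterocyte markers were as the tissue labels say: *Lgr5* ranged from 752 to 1529 normalized counts in crypts and from 13.9 to 64.2 in villi, and *Apoa4* ranged from 1327 to 2701 in crypts and from 17276 to 24851 in villi. A normalized count is a read count divided by the size factor of its library. *Ptgs1* had 365 and 164 normalized counts in Ctrl crypts and 178 and 199 in mutant crypts, overlapping groups, and 90.4 in the Ctrl villi against 50.5 and 92.7 in the mutant villi, and *Ptgs2* was not listed. This does not check the labels, because the deletion lies in cells outside the epithelium.

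Class II genes share a proximal promoter layout, with an X box bound by the RFX complex upstream of a Y box bound by NF-Y, and CIITA is recruited to that assembly. A RefSeq promoter window (GRCm38.p6) could be matched for 4 of the 7 genes, *H2-Aa*, *H2-Eb1*, *H2-DMa* and *H2-DMb1*. The stretches below run from 120 to 31 bases before the start site, for 3 of these genes and for *H2-Ob*. *H2-Ob* encodes a subunit of the inhibitor of DM. In the crypts it was lower in both libraries numbered 1 than in both numbered 2, the opposite order to 6 of the 7 genes. Capitals mark the Y box core ATTGG on either strand and the X box, searched as CCTAG, any 2 bases, AC, any 1 base and GATG, on both strands and without overlap between the motifs.
H2-Aa (chr17:34287854-34287943, minus strand): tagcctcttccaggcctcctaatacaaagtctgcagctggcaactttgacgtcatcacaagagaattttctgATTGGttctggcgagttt
H2-Eb1 (chr17:34305747-34305836, plus strand): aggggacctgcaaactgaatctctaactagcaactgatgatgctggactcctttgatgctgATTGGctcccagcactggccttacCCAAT
H2-DMb1 (chr17:34153071-34153160, plus strand): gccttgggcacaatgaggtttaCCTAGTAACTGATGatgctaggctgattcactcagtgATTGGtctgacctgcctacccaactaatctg
H2-Ob (chr17:34238785-34238874, plus strand): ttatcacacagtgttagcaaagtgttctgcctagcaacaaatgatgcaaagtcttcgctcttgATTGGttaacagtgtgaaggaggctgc

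The Y box core began 48 bases before the start of *H2-Aa*, 59 before that of *H2-Eb1*, 61 before that of *H2-DMb1* and 57 before that of *H2-Ob*. *H2-Eb1* held another copy on the opposite strand, 35 bases before its start. *H2-DMa* has 2 listed starts, and only the window of its second start held the core, 198 bases upstream. Both windows (chr17:34122582-34122881 and chr17:34125268-34125567) lie inside the annotated span of the gene, chr17:34119541-34139101. Apart from its first base, the stretch shown for *H2-DMb1* also lies inside the annotated span of that gene, chr17:34153072-34160230. Which start of either gene is used in these tissues was not tested, so these windows may not be the promoters in use. These 5 letters are common, being found in 37.4% of all 32851 promoter windows of 300 bases. The exact X box was found in 0.0213% of the windows, 7 in all, and among the 4 class II genes with a window it was found in *H2-DMb1*, 98 bases before its start. Stretches that depart from the searched pattern by a letter were not counted or marked. *H2-Eb1* and *H2-Ob* each hold such a stretch above, upstream of the Y box core, so a missing mark does not mean that no X box is there. *H2-Ob*, with its other crypt pattern, held the Y box core at a like distance. A match describes letters and not a bound site.

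In the villi, the Ctrl library exceeded both mutant libraries in each of the 7 genes, from 2.01-fold for *Ciita* to 6.36-fold for *H2-DMa*. *H2-Aa*, the α chain of the I-A molecule (ENSMUSG00000036594, chr17:34282744-34287823, minus strand, mm10), had 2725 normalized counts in the Ctrl library against 714 and 577 in the mutant libraries. *H2-Ab1*, its β chain partner (ENSMUSG00000073421, chr17:34257689-34269419, plus strand), had 6671 against 1655 and 1311. *H2-Eb1*, the β chain of I-E (ENSMUSG00000060586, chr17:34305867-34316674, plus strand), had 3136 against 823 and 740. The 3 chain genes therefore stood at similar distances below the Ctrl library, which exceeded the mutant libraries 3.81-fold and 4.72-fold for *H2-Aa*, 4.03-fold and 5.09-fold for *H2-Ab1*, and 3.81-fold and 4.23-fold for *H2-Eb1*. The gene of the I-E α chain, *H2-Ea*, which C57BL/6 mice are known not to express, was not listed in either tissue.

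The accessory genes followed. *Cd74* (ENSMUSG00000024610, chromosome 18) had 12383 normalized counts in the Ctrl villus library and 2843 and 1952 in the mutants, a 4.35-fold and 6.34-fold difference. *H2-DMa*, the DM α chain (ENSMUSG00000037649, chr17:34119541-34139101, plus strand), had 810 against 170 and 127, 4.73-fold and 6.36-fold. *H2-DMb1*, a DM β chain (ENSMUSG00000079547, chr17:34153072-34160230, plus strand), had 509 against 103 and 100, 4.89-fold and 5.02-fold. Its nearly identical neighbour *H2-DMb2* had 49.8 against 10.7 and 19.3, and the split of reads between the 2 copies is uncertain.

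*Ciita*, the coactivator (ENSMUSG00000022504, chr16:10480059-10528418, plus strand), differed least of the 7 before any correction for transcript length. It had 232 normalized counts in the Ctrl villus library against 115 and 95.6, a 2.01-fold and 2.41-fold difference. By the mean difference, *H2-DMa* ranked 53 from the lowest of the 12701 villus genes and the other 5 genes ranked between 63 and 96, whereas *Ciita* ranked 782. All 7 were lower in both mutant libraries, as were 44.2% of all villus genes (43.7% were higher in both), and all 7 were over 2-fold lower in both, as were 6.4% (10.6% were over 2-fold higher). These counts restate the choice of the genes and are not evidence about them. With 1 Ctrl library, the villus differences have no replicate check.

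**Figure D1:**
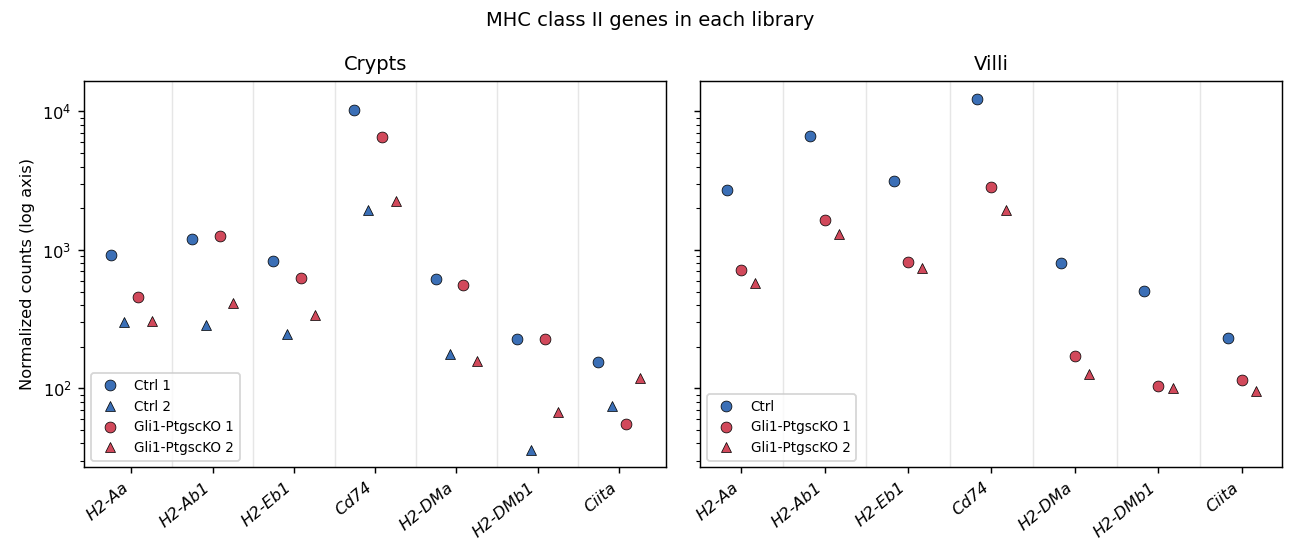
Normalized counts (log axis) of the 7 class II genes in each crypt library (left) and villus library (right), with Ctrl in blue, Gli1-PtgscKO in red, circles for libraries numbered 1 and triangles for those numbered 2. In the villi each Ctrl point lies above both mutant points, whereas in the crypts the genotypes overlap and, except for *Ciita*, the 2 circles lie above the 2 triangles.

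The villus differences also varied with transcript length. Across genes, the difference between mutant and Ctrl villi rose with that length, measured on the longest annotated transcript (Spearman correlation 0.543 and 0.507 for the 2 mutant libraries, each over 12698 genes that share the same libraries). *H2-Ab1*, *Cd74* and *H2-DMb1*, with longest transcripts of 1212, 1410 and 1404 bases, are short, and *Ciita*, with 6007 bases, is long. After the trend with length was taken out, the mean log2 difference of *H2-Ab1* went from -2.18 to -1.56, that of *Cd74* from -2.39 to -1.84 and that of *H2-DMb1* from -2.31 to -1.75. *H2-Eb1* went from -2.01 to -1.54 and *H2-DMa* from -2.45 to -2.11. *H2-Aa*, of intermediate length, stayed at -2.08.

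*Ciita* moved the other way, from -1.14 to -1.67, so that after the correction it stood among the genes it is known to drive. The median of the 7 went from -2.18 to -1.75, where that of all villus genes was -0.02 with the correction. All 7 were still over 2-fold lower in both mutant libraries, as were 3.19% of all genes after the same correction (6.91% were over 2-fold higher).

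**Figure D2:**
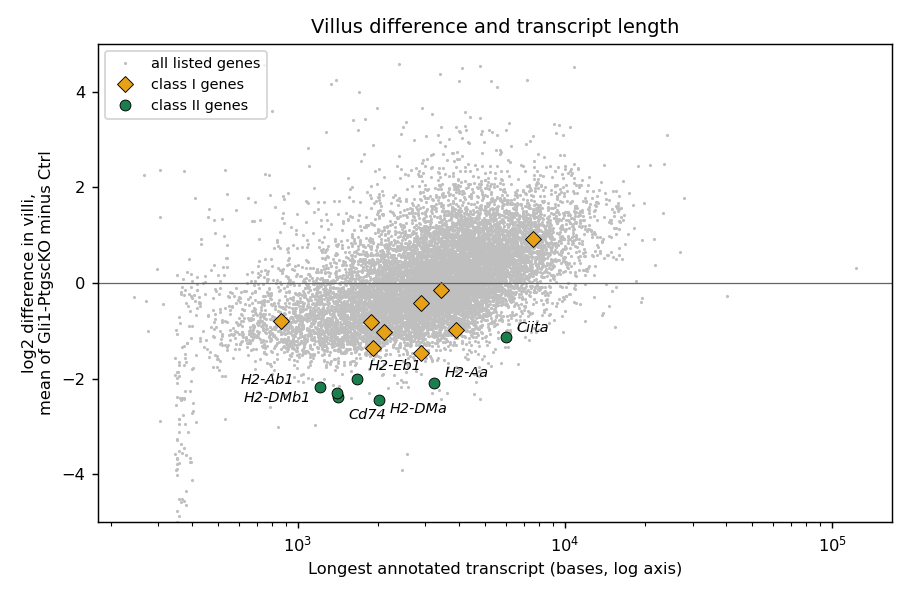
Mean log2 difference of the 2 Gli1-PtgscKO villus libraries from the Ctrl villus library against the longest annotated transcript of each gene (log axis), for all listed genes (grey), 9 class I genes (orange) and the 7 class II genes (green); 6 genes lie outside the plotted range. The grey cloud rises with length, and the class II genes lie at its lower edge, between -1.14 for *Ciita* and -2.45 for *H2-DMa*.

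The crypts gave the comparison that the choice of genes did not use. No class II gene passed the test between genotypes there. *H2-Aa* had 922 and 303 normalized counts in Ctrl crypts and 457 and 308 in mutant crypts. Its mutant values lay within the range of the Ctrl values, and its log2 fold change was -0.49 ± 0.53 (SE, n = 2 per group; limma-trend, adjusted p = 1.00). *H2-Ab1* had 1198 and 287 in Ctrl against 1257 and 410 in the mutants, a log2 fold change of 0.29 ± 0.75. *H2-Eb1* had 827 and 245 against 623 and 339, or 0.03 ± 0.60. In all 3 chain genes, a low and a high library occurred in each genotype.

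*Cd74* had 10229 and 1929 normalized counts in Ctrl crypts against 6554 and 2248 in mutant crypts, a log2 fold change of -0.21 ± 0.81. *H2-DMa* had 615 and 178 against 559 and 159, or -0.15 ± 0.75. *H2-DMb1* had 228 and 36.0 against 229 and 67.0, or 0.44 ± 0.95. *Ciita* had 156 and 74.7 against 55.6 and 118, or -0.40 ± 0.59. The genotypes overlapped for each of these 4 genes as well.

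None of the 7 passed an adjusted p of 0.05 by limma-trend, and the adjusted p was 1.00 for each. None of the 11554 crypt genes passed either, a share of 0%, and 73 (0.632%) had an unadjusted p under 0.05, none of them a class II gene. At an unadjusted p under 0.01 with a change of over 2-fold, the threshold of the study, 0.00866% of crypt genes were lower and 0.173% higher, again with no class II gene. In 0 of the 7 genes did both mutant libraries lie below both Ctrl libraries or above both, arrangements shown by 11.3% and 9.73% of all crypt genes. The 95% intervals of the crypt log2 fold changes ran from -1.76 to 0.78 for *H2-Aa*, from -1.50 to 2.09 for *H2-Ab1* and from -2.15 to 1.72 for *Cd74*. They include 0 and also changes of over 2-fold in either direction for all but *H2-Aa*, whose upper bound is lower, so with 2 libraries per genotype such changes could not be detected in the crypts.

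**Figure D3:**
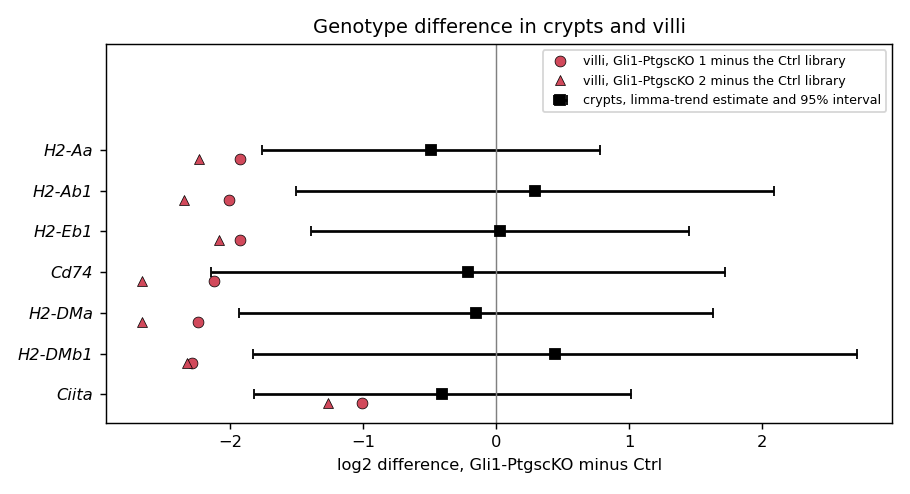
Log2 difference of Gli1-PtgscKO from Ctrl for each class II gene, as the crypt estimate of limma-trend with its 95% interval (black squares) and as the single differences of the 2 mutant villus libraries from the 1 Ctrl villus library (red). The crypt estimates lie between -0.49 and 0.44 and every crypt interval covers 0, while the villus points lie between -1.01 and -2.67 and carry no interval.

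The larger differences in the crypts were between libraries of the same genotype. The values of the Ctrl library numbered 1 exceeded those of the Ctrl library numbered 2 by 2.41 on the log2 scale for *Cd74*, 2.63 for *H2-DMb1*, 2.06 for *H2-Ab1*, 1.78 for *H2-DMa*, 1.75 for *H2-Eb1*, 1.60 for *H2-Aa* and 1.05 for *Ciita*. Between the mutant libraries the same difference was 1.54 for *Cd74*, 1.76 for *H2-DMb1*, 1.61 for *H2-Ab1*, 1.81 for *H2-DMa*, 0.88 for *H2-Eb1* and 0.57 for *H2-Aa*. *Ciita* was the exception, at -1.08. This view of the libraries was chosen after their values were seen.

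In 6 of the 7 genes both libraries numbered 1 thus lay above both numbered 2, as in 25.8% of all crypt genes. In 4 of the 7, *H2-Ab1*, *Cd74*, *H2-DMa* and *H2-DMb1*, the difference was over 2-fold within each genotype, as in 0.424% of all crypt genes. The sources do not say whether equal numbers mark a shared litter or day. *H2-Ob* lay in the opposite order, with 17.8 and 83.7 normalized counts in Ctrl crypts and 25.2 and 91.6 in mutant crypts. It is known for its expression in B cells.

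Summed over the 7 genes, CPM (reads scaled to a common total of reads on listed genes) came to 772 (95% exact binomial interval 760 to 784) and 161 (155 to 166) in Ctrl crypts, and 475 (465 to 484) and 194 (187 to 201) in the mutant crypts. The intervals cover counting error only, and the gap between libraries of one genotype was far wider. In normalized counts the sum was 8614 ± 7863 in Ctrl and 6692 ± 4303 in mutant crypts (SD, n = 2 each; two-sided exact permutation test on the log2 scale, p = 1, where 0.333 is the smallest value this design can give). In the villi the sum was 1566 (1546 to 1587) CPM in the Ctrl library and 533 (522 to 545) and 377 (366 to 387) in the mutant libraries.

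In bulk RNA, fewer cells of a type and less RNA per cell cannot be told apart, and class II genes are expressed both by epithelial cells and by immune cells that can remain in such preparations. The summed level of 9 B and plasma cell markers was 391 CPM in the Ctrl villus library and 71.0 and 115 in the mutant libraries, with 5 of the 9 over 2-fold lower in both. The summed level of 10 macrophage markers was 412 against 225 and 262, with 5 of the 10 over 2-fold lower in both, among them the complement gene *C1qa* (604 normalized counts against 106 and 245). Single genes made up much of these sums. *Igkc* gave 300 of the 391 CPM, against 44.6 and 71.8. *Lyz2* gave 245 of the 412, against 155 and 167, and was not over 2-fold lower in both. The 9 listed T cell markers of 10 summed to 738 against 573 and 677, with none over 2-fold lower in both. Over all villus genes 6.4% were over 2-fold lower in both. After the length correction 2 of the 9 B and plasma cell markers and 2 of the 10 macrophage markers were, against 3.19% of all genes. Their median log2 differences went from -1.36 to -0.88 and from -1.23 to -1.08. Before the correction 6 of the 9 B and plasma cell markers and 9 of the 10 macrophage markers were lower in both, as were 44.2% of all villus genes. Most of these markers thus stood lower in the mutant villi alongside the class II genes, and their part in the result was not tested.

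Of 9 dendritic cell markers, only *Itgax* and *Irf8* were listed, and *Flt3*, *Zbtb46*, *Xcr1*, *Clec9a*, *Batf3*, *Cd209a* and *Ccr7* were not. *Itgax* had 178 normalized counts in the Ctrl villus library against 122 and 145. *Irf8*, which B cells and macrophages also express, had 3122 against 1386 and 1559. Of 5 general leukocyte markers 4 were lower in both mutant villus libraries, as were 44.2% of all villus genes, and *Ptprc* was higher, with 200 against 608 and 722. The median log2 difference over the 5 was -1.09, but -0.04 after the length correction. The epithelial markers summed to 9131 CPM in the Ctrl villi and to 7848 and 7461 in the mutant villi.

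In the crypts most of the T and B cell markers lay in another order of libraries than the class II genes. The T cell markers, 5 of 10 being listed there, summed to 41.1 and 106 CPM in Ctrl crypts and to 45.3 and 101 in the mutant crypts, and each of the 5 was lower in both libraries numbered 1, as were 26.4% of all crypt genes. Of 7 listed B and plasma cell markers 5 were also lower in both libraries numbered 1, and their sums were 101 and 86.2 in Ctrl and 49.9 and 83.0 in the mutants. The 4 listed macrophage markers summed to 79.5 and 36.1 in Ctrl and to 82.3 and 119 in the mutants. Of these 4, 1 was higher in both libraries numbered 1, *Cd14*, with 536 and 193 normalized counts in Ctrl and 516 and 304 in the mutants. The library with the highest class II sum, Ctrl 1 at 772, thus had the lowest T cell sum but the highest B and plasma cell sum. That B and plasma cell sum came mostly from *Igkc* (66.2 CPM) and *Jchain* (23.3). The other 5, *Cd79a*, *Cd79b*, *Ms4a1*, *Cd22* and *Pax5*, were those lower in both libraries numbered 1, like the T cell markers. The marker lists did not share 1 order, and their part in the class II values was not tested.

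**Figure D4:**
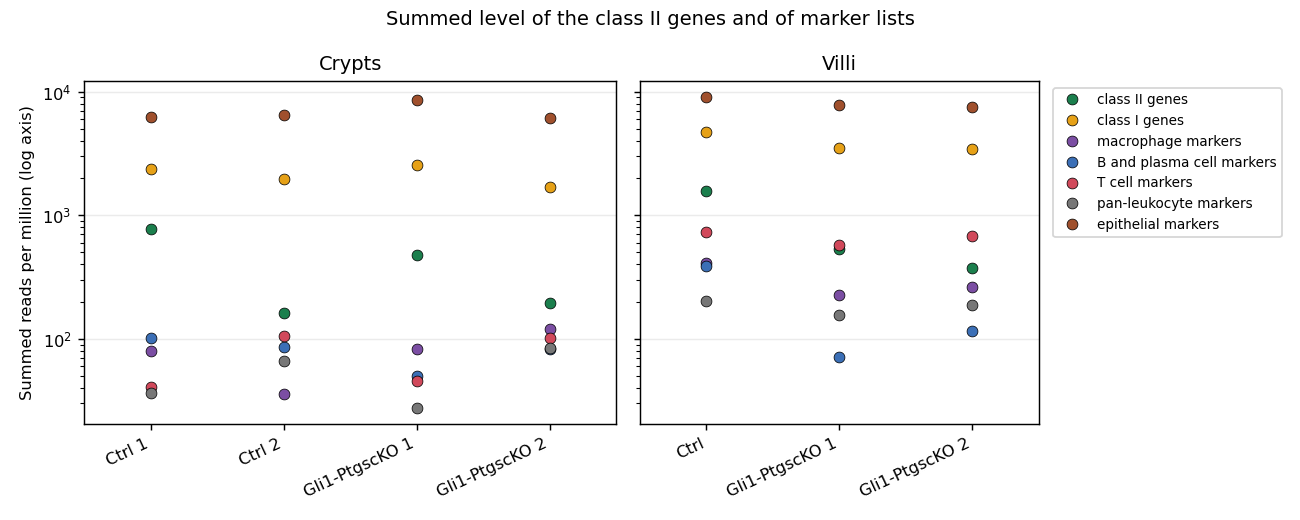
Summed CPM (log axis) of the class II genes and of marker lists in each crypt library (left) and villus library (right), over the genes of each list that the table of that tissue holds, so sums of immune lists are not comparable between panels. The class II sum varies from 161 to 772 in the crypts while the epithelial sum stays between 6162 and 8531, and in the villi it is 1566 in the Ctrl library against 533 and 377.

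The relative levels of the class II genes differed between crypts and villi. In RPKM, which is CPM per kilobase of longest transcript, *Cd74* was the highest in each tissue, with 72.0 to 395 over the 4 crypt libraries and 106 to 520 over the 3 villus libraries. *H2-Ab1* came next, with 12.5 to 53.8 in crypts and 83.1 to 326 in villi, followed by *H2-Eb1* with 7.72 to 27.0 and 34.1 to 111. *H2-Aa* (4.95 to 15.6 in crypts, 13.7 to 50.0 in villi), *H2-DMa* (4.20 to 16.7 and 4.85 to 23.9) and *H2-DMb1* (1.35 to 8.83 and 5.50 to 21.4) lay lower, with ranges that overlap in each tissue. *Ciita* was the lowest, at 0.451 to 1.41 in crypts and 1.22 to 2.28 in villi. Neighbours in this order overlapped in range, except *Cd74* and *H2-Ab1* in the crypts and *H2-DMb1* and *Ciita* in the villi. Within each of the 7 libraries, however, *Cd74* stood above *H2-Ab1* and *H2-Ab1* above *H2-Eb1*. With the union of exons as the length, *H2-Eb1* stood above *H2-Ab1* in the Ctrl and mutant crypt libraries numbered 2, at 6.62 against 5.88 and 9.25 against 8.48.

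Ratios within a library remove the overall level. The ratio of *Cd74* to *H2-Ab1* per kilobase was 7.34 and 5.77 in Ctrl crypts and 4.48 and 4.71 in the mutant crypts, against 1.60 in the Ctrl villi and 1.48 and 1.28 in the mutant villi. The ratio of *H2-Ab1* to *H2-DMa* was 3.22, 2.67, 3.72 and 4.28 in the same crypt libraries and 13.6, 16.1 and 17.1 in the villi. That of *H2-DMa* to *H2-DMb1* ran from 1.66 to 3.47 in crypts and from 0.882 to 1.16 in villi. Crypts and villi did not overlap in any of these 3 ratios.

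The ratio of *H2-Ab1* to *H2-Eb1*, 1.62 to 2.78 in crypts and 2.44 to 2.93 in villi, overlapped between the tissues. *Cd74* made up between 61.6% and 72.2% of the reads on the 7 genes in crypts and between 39.8% and 46.8% in villi. Every crypt library thus held more RNA of the invariant chain and of *H2-DMa* for each unit of *H2-Ab1* than any villus library did. The ratios were chosen after the values were seen and were not tested, and crypts and villi come from separately normalized tables. Reads of *H2-DMa* are uncertain, since its annotated exons overlap those of *Brd2* on the opposite strand by up to 495 bases and the use of strand in counting is not stated. *Ciita* likewise overlaps *Dexi*, by 138 bases.

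**Figure D5:**
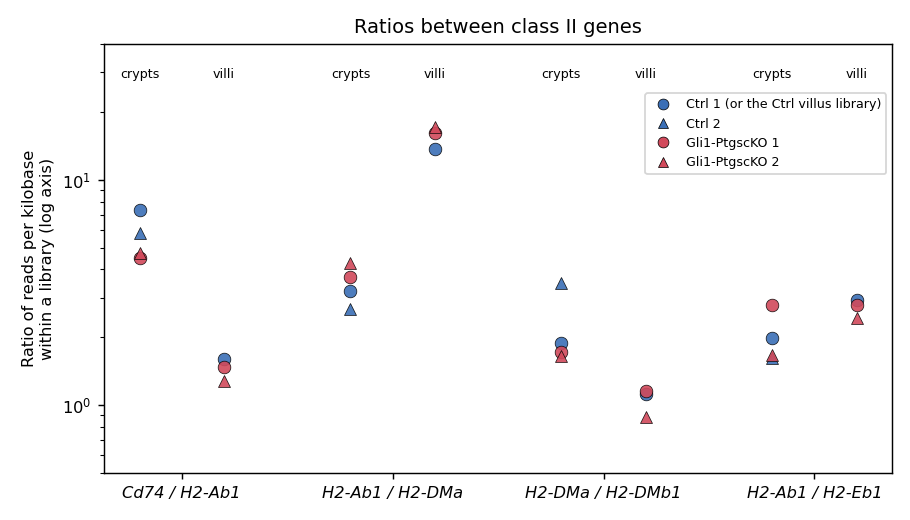
Ratio of reads per kilobase between pairs of class II genes within each library (log axis), for the 4 crypt and 3 villus libraries, with Ctrl in blue and Gli1-PtgscKO in red. *Cd74* to *H2-Ab1* is 4.48 to 7.34 in crypts and 1.28 to 1.60 in villi, *H2-Ab1* to *H2-DMa* is 2.67 to 4.28 and 13.6 to 17.1, and *H2-Ab1* to *H2-Eb1* overlaps between the tissues.

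Genes that act upstream of class II expression were taken from fixed lists. Of 7 genes for the DNA-binding factors of class II promoters, none had an adjusted p under 0.05 in the crypts by limma-trend, and the villus median log2 difference was 0.14. *Rfx5*, the DNA-contacting RFX subunit, had 31.3 normalized counts in the Ctrl villus library against 71.9 and 59.9 in the mutants. *Rfxap*, another RFX subunit, had 155 against 158 and 147. *Rfxank*, the third RFX subunit, had 314 against 148 and 163. The RFX subunits thus went in different directions in the villi.

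The genes of the NF-Y subunits also differed in direction. *Nfya* had 225 against 222 and 276, *Nfyb* 166 against 198 and 231, and *Nfyc* 806 against 552 and 579. *Creb1*, whose product also binds class II promoters, had 145 against 326 and 337. After the length correction its mean log2 difference went from 1.19 to 0.37.

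Interferon γ signalling genes, 6 of 7 being listed, had a villus median log2 difference of -0.17, with 3 lower and 2 higher in both mutant libraries (44.2% and 43.7% of all villus genes) and none over 2-fold lower. *Ifng* itself was not listed. The receptor genes *Ifngr1* and *Ifngr2* had 799 against 1219 and 1037, and 3553 against 2517 and 2661. Of the kinases, *Jak1* had 1332 against 1304 and 1366, and *Jak2* had 993 against 1781 and 1781. The target genes *Irf1* and *Socs1* had 2851 against 1934 and 2589, and 120 against 52.0 and 77.3. None of the 6 had an adjusted p under 0.05 in the crypts by limma-trend.

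Genes of endosomal processing, 8 of 11 symbols being listed, had a villus median log2 difference of -0.72, or -0.50 after the length correction. The 11 symbols include older and newer names of the same genes, *March1* or *Marchf1* and *March8* or *Marchf8*. The first of these genes was listed under neither name. Before the correction 7 of the 8 were lower in both mutant libraries, as were 44.2% of all villus genes. None was over 2-fold lower in both, against 6.4% of all villus genes. *Ctss*, the protease that trims the invariant chain in professional presenting cells, had 1610 normalized counts in the Ctrl villus library against 1353 and 1275. *Ctsl* had 304 against 228 and 253, *Ctsb* 8431 against 5779 and 5070, *Ctsd* 5053 against 2902 and 2642, and *Ctsh* 1677 against 871 and 717. *Lgmn*, an endosomal peptidase, had 537 against 266 and 359, and *Ifi30*, which reduces disulphide bonds, 2897 against 1783 and 1548. *March8*, a ubiquitin ligase that removes class II from the surface, had 1565 against 1917 and 2025. After the length correction the mean log2 difference of *Ctss* went from -0.29 to 0.28 and that of *Ifi30* from -0.80 to -0.09. Moving the other way, *Ctsl* went from -0.34 to -0.90 and *Ctsb* from -0.64 to -0.95. In the crypts none of the 8 had an adjusted p under 0.05 by limma-trend.

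Class I genes gave the nearest comparison within antigen presentation. In the villi 8 of 9 were lower in both mutant libraries, with a median log2 difference of -0.81, or -0.42 after the length correction, against -2.18 and -1.75 for the class II genes, and 2 of the 9 were over 2-fold lower in both. Over all villus genes 44.2% were lower in both and 6.4% were over 2-fold lower. *H2-K1*, a class I heavy chain, had 24807 normalized counts in the Ctrl villus library against 14292 and 14050. *H2-D1* had 17303 against 8282 and 8864, and *B2m*, the shared light chain, 26662 against 14392 and 16413. After the length correction the mean log2 difference was -0.42 for *H2-K1*, -0.70 for *H2-D1* and -0.03 for *B2m*. The difference between the 2 sets was not tested, because the class II genes were chosen on this contrast. In the crypts *H2-K1* had 11754 and 9279 in Ctrl and 14711 and 8168 in the mutants, so that it too was highest in the libraries numbered 1, with a smaller gap than *Cd74*. Of the costimulatory genes *Cd80*, *Cd86*, *Cd40* and *Pdcd1lg2* were not listed in either tissue. In the villi *Icosl* had 69.5 normalized counts against 119 and 96.6, and *Cd274* 24.3 against 29.1 and 34.8. Both were higher in both mutant libraries, as were 43.7% of all villus genes.

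The 5 other genes whose pattern was most like that of the class II genes were *Cd14*, *Reg3b*, *Reg3g*, *Srp9* and *Gm10076*. Likeness was the root mean square distance, on the log2 scale over the 7 distinct libraries and with each tissue centred, from the median profile of the 7 genes, among 7455 genes with at least 10 CPM on average in each tissue. The distances were 0.276, 0.278, 0.308, 0.313 and 0.383. Those of the class II genes themselves ran from 0.139 for *H2-Eb1* to 0.309 for *H2-DMb1*, with *Ciita* at 0.760. *Ciita* was thus less like the median of the group than *Gm10076* was.

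*Cd14*, a co-receptor for bacterial lipopolysaccharide, had 536 and 193 normalized counts in Ctrl crypts, 516 and 304 in mutant crypts, and 471 in the Ctrl villi against 178 and 114 in the mutant villi. *Reg3b*, a secreted antimicrobial lectin, had 53988 and 23668, then 42842 and 20847, and in villi 161597 against 25433 and 28464. *Reg3g*, its relative, had 41400 and 16305, then 26238 and 15094, and in villi 46512 against 10864 and 14177. *Srp9*, a subunit of the signal recognition particle, had 1359 and 483, then 1162 and 374, and in villi 642 against 317 and 185. *Gm10076*, a predicted gene, had 240 and 89.1, then 324 and 124, and in villi 3422 against 1309 and 1566. Each of the 5 was higher in both crypt libraries numbered 1 and lower in both mutant villus libraries, which the measure of likeness favours. *Cd14* is also 1 of the 10 macrophage markers.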

How the data were processed

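The authors aligned reads to mm10 with STAR; the deposited values are normalized counts per gene, counts divided by a size factor (signal), as the whole-read steps in every column show, and the submitters' notes name DESeq2. The study's methods name Qiagen RNeasy and NuGEN Ovation kits, whereas the labels name RNeasy from Mei5 Biotech and NEBNext Ultra. The tables also hold the comparison of the authors (log2 fold changes, statistics and p-values), which was not used. The annotation and counter are not given in the sources used here. The class II genes and all lists were chosen with earlier results of these data known; genes named beyond them follow a fixed rule, given with the similar genes.

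Crypt genotypes were compared with limma-trend 3.58.1 (R 4.3.3) on log2(normalized count + 1) over all 11554 genes with a mean of at least 1, with Benjamini-Hochberg adjustment. The pseudocount understates changes of low genes. The script was tested on simulated data. Villus values are differences of log2(normalized count + 1) from the single Ctrl library, with no test. CPM refers to reads on listed genes. Transcript lengths and positions came from GENCODE M21 (mm10) and were matched for 11552 crypt and 12698 villus genes; the length trend was removed by lowess (span 0.3). Alternatives covered scaling, filters, pseudocount, length, a replicate block and left-out libraries. That the p-values rest on 2 libraries per genotype limits them to the spread between these libraries. A gene of the interferon γ list is not reported here, and the list's counts and median leave it out.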

Additional observations from a re-analysis of the deposited data

Results flagged for a closer look

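For 4 of the 37 named genes that were checked, both mutant libraries lay on one side of Ctrl in the crypts and on the other side in the villi. The difference between tissues was not tested, and none of the 4 had an adjusted p under 0.05 in the crypts by limma-trend. *Rfxank*, an RFX subunit, had a log2 difference of 0.85 in the crypts (91.8 and 179 normalized counts in Ctrl, 290 and 187 in the mutants) and of -1.01 in the villi. *Ctsl*, an endosomal protease, had 0.18 in the crypts and -0.34 in the villi. *Ctsh*, another, had 0.41 and -1.09. *Socs1*, an inhibitor of interferon signalling, had 0.80 and -0.92. Such opposite arrangements were found in 12.9% of the 11227 genes listed in both tissues. The 4 of 37 do not exceed that share, so their count is not a result about these genes. None of the 7 class II genes was among them.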

How the results depend on the processing

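Under each of the 11 crypt alternatives that were run, none of the 7 class II genes reached an adjusted p of 0.05 (77 values; adjusted p between 0.271 and 1.00), but the sign of each gene's crypt difference changed under at least 1 alternative. The median crypt log2 fold change of the 7 was -0.15, and between -0.93 and 0.91 when single libraries were left out. It was 0.91 without Ctrl replicate 1, when *H2-Ab1* and *H2-DMb1* were higher at an unadjusted p of 0.0327 and 0.0430, and -0.93 without Ctrl replicate 2, when *Cd74* and *H2-Aa* were lower at 0.0226 and 0.0357, so from 0 to 2 of the 7 had an unadjusted p under 0.05. The sources do not pair same-numbered libraries, and their deviations from the group means correlated at 0.247 across 11554 genes. With the replicate block, 34 crypt genes had an adjusted p under 0.05 where the fit without it had 0, and no class II gene was among them; with the block and the length correction together there were 0. Leaving out single libraries gave 0 to 1987, the highest without mutant replicate 2, where the lone mutant library is assumed to vary like the Ctrl libraries. At the study's threshold (unadjusted p under 0.01 and over 2-fold) 1 crypt gene was lower and 20 were higher. The lower count became 4 with library size alone, 4 with the length correction, 15 with the block and 5 with both, and 3 to 288 without single libraries. The higher count became 63 with the block and 15 to 593 without single libraries, both counts being highest without mutant replicate 2. The villus median of the 7 was -2.18, and -1.75 both with library size alone, which moves the median of all villus genes to 0.42, and with the length correction. With library size alone 6 of the 7 were over 2-fold lower in both mutant libraries, *Ciita* being the exception. With the exon union in place of the longest transcript, 5 of 7 genes kept their rank in each tissue. Of the 5 most similar genes, 1 remained when crypts or villi were used alone. The planned DESeq2 and edgeR count tests were not run, because the tables hold scaled values and the lowest crypt genes are several reads deep.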
